A study of Mus musculus with 8 samples.

Results

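The difference between the effects of 2 forms of the transcription regulator TOX was measured gene by gene in mouse CD8 T cells. The effect of a form is the log2 ratio of GFP-positive to GFP-negative cells from cultures given that form. The difference of effects is the effect of the full-length form (TOXFL) minus the effect of TOXdeltaN, the form without the N-terminal region. A difference below 0 means that the level was lower, relative to its own GFP-negative cells, with TOXFL than with TOXdeltaN. All 31815 gene rows of 31907 rows in the table were taken, leaving out 92 rows of ERCC spike-in RNA, and 13329 had enough counts to be tested.

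TOX is a nuclear protein that binds DNA through an HMG box. In CD8 T cells that keep meeting their antigen, it is known for its part in the exhausted state, in which inhibitory receptors are raised and effector functions are reduced. It also takes part in the development of CD4 T cells in the thymus. TOXFL and TOXdeltaN share the HMG box, so a gene that depends on the N-terminal region would respond to one form and not, or less, to the other.

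All cells came from spleens of OT-I mice, which carry a transgenic T cell receptor for a peptide of ovalbumin. Per the series description, they were cultured with the peptide for 3 days, given a retrovirus for TOXFL or TOXdeltaN after 24 h and sorted on day 5. The virus also encoded GFP, and the GFP-positive group was the brightest 20% of the GFP-positive cells. The 4 groups were TOXFL GFP-negative, TOXFL GFP-positive, TOXdeltaN GFP-negative and TOXdeltaN GFP-positive cells, with 2 libraries each, made from 8 ng of RNA with a SMART-Seq and Nextera protocol that does not mark strand. Cells with a GFP-only virus were not analysed here, so each effect holds the TOX form, the virus and the sort on GFP together, and only the difference of effects sets the forms against each other. Whether the 2 libraries of a group are separate mice or cultures is not stated in the labels, and p-values therefore measure a spread that may be technical. In bulk RNA, fewer cells that express a gene and less RNA of it per cell cannot be told apart.

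Total counts lay between 25059112 and 31240067 per library. The tested CD8 T cell markers summed to between 2618 and 3051 CPM (counts scaled to 1e+06 per library, with a correction for composition), and B cell, CD4 T cell, myeloid, NK and erythroid markers to at most 26.8 CPM in any library. The summed myeloid markers were highest in the replicate 2 libraries of the GFP-positive groups, at 26.8 CPM with TOXFL and 26.4 CPM with TOXdeltaN. Most of that sum was Cd74, with 760 and 631 counts in these libraries. Lyz2 had 0 and 0, Itgam 65 and 16 and Itgax 14 and 8 counts, so the markers of the list did not rise together. The second library of TOXdeltaN GFP-positive cells stood apart by transcript length, with the 20% of genes of longest transcripts at −0.24 and the 20% of shortest at 0.22 on the log2 scale from their mean over libraries. In the other 7 libraries the longest 20% lay between −0.03 and 0.13. The second library of TOXFL GFP-positive cells had 0.45% of its counts in mitochondrially encoded genes, against 0.708% to 0.909% in the other libraries.

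Tox, measured first as a check of the labels, stood at 25.1 and 34.4 CPM in TOXFL GFP-negative libraries (replicates 1 and 2) and at 105 and 126 CPM in TOXFL GFP-positive libraries. With TOXdeltaN, the GFP-negative libraries had 21.8 and 32.2 CPM and the GFP-positive libraries 107 and 82.9 CPM. Both GFP-positive groups lay above both GFP-negative groups, and the GFP-positive groups overlapped. Reads from the cell's own Tox gene and from the virus are counted together here. The difference of effects for Tox was 0.14 (SE 0.302, 95% interval −0.536 to 0.821), so the total Tox counts reached with the 2 forms did not separate at this precision. The TOXdeltaN insert lacks the part for the N-terminal region, and counts were not corrected for its length. They therefore do not compare the number of RNA molecules of the 2 forms. Of its relatives, Tox4 had a difference of 0.11 (95% interval −0.214 to 0.437), and Tox2 with 2 to 12 counts and Tox3 with 0 to 5 counts per library were too low to test.

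edgeR called no gene for the difference of effects, and DESeq2 called a few. edgeR's quasi-likelihood test gave 0 of 13329 genes (0%) under an adjusted p of 0.05, and 318 genes (2.39%) with an unadjusted p under 0.05, of which 114 lay above 0 (0.855%) and 204 below 0 (1.53%). An even spread of p-values would put 666.4 genes there. The smallest unadjusted p was 0.000205, while the first gene would have needed 3.75e-06. In the blocked fit, which adds the replicate number to the model, edgeR again called 0 genes and gave 494 (3.71%) an unadjusted p under 0.05. The same libraries gave 1790 genes (13.4%) for the effect of TOXFL and 1632 (12.2%) for that of TOXdeltaN in the first fit. DESeq2 called 5 of 21394 genes (0.0234%) and limma-voom 0 for the difference, with 264 and 328 at an unadjusted p under 0.05, and DESeq2 with the block called 6. The count was 45 with no filter on low counts, and the blocked fit called 449, of which 364 were above 0, when the first TOXdeltaN GFP-positive library was left out and the second, which stood apart by transcript length, alone represented its group. The part of transcript length in those calls was not tested.

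**Figure D1:**
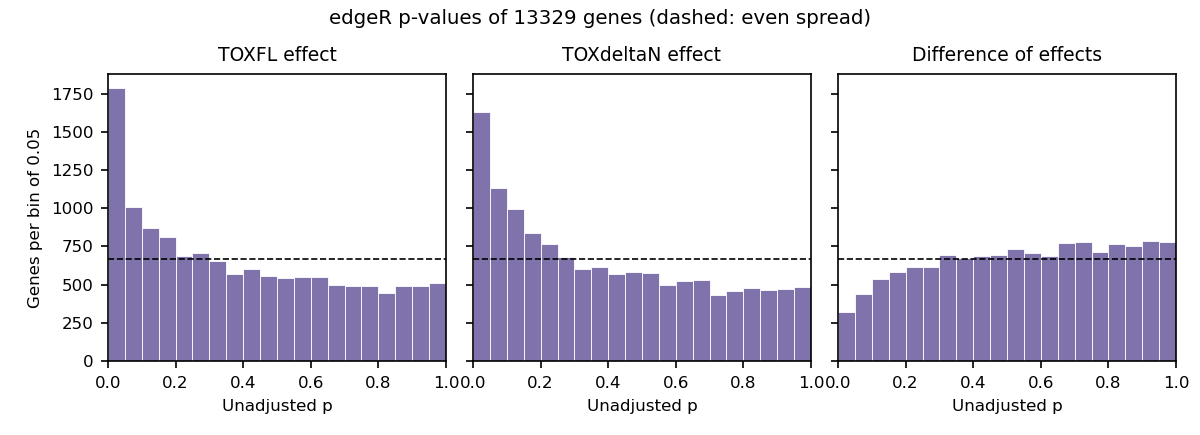
Number of genes (vertical axis) in bins of unadjusted p from edgeR (horizontal axis) for the effect of TOXFL, the effect of TOXdeltaN and the difference of effects. The lowest bin holds 1790, 1632 and 318 genes, and the dashed line is an even spread.

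The effects of the 2 forms lay close to each other for most genes. Among 9054 genes with a mean of at least 8 CPM, the middle 80% of the differences lay between −0.21 and 0.21, and the range was −2.07 to 1.09. The SE of a difference had a median of 0.171, and the 95% interval reached a median of 0.384 to either side. For 8684 of these genes (95.9%) the whole interval lay within 1 log2 unit of 0, so a difference beyond that size was outside the interval. Across these genes the effects of the forms had a Pearson r of 0.687 and a Spearman rho of 0.678. The effects come from separate libraries, and genes are not independent replicates. Both effects ran with transcript length. In the shortest 20% of genes the median effect was 0.0809 with TOXFL and 0.15 with TOXdeltaN, and in the longest 20% −0.128 and −0.159. The part of transcript length in the correlation of effects was not tested. The differences computed from the replicate 1 libraries and from the replicate 2 libraries had a Pearson r of 0.00268 and shared a sign for 47% of genes, so the size of a typical gene's difference was not shared between replicates.

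**Figure D2:**
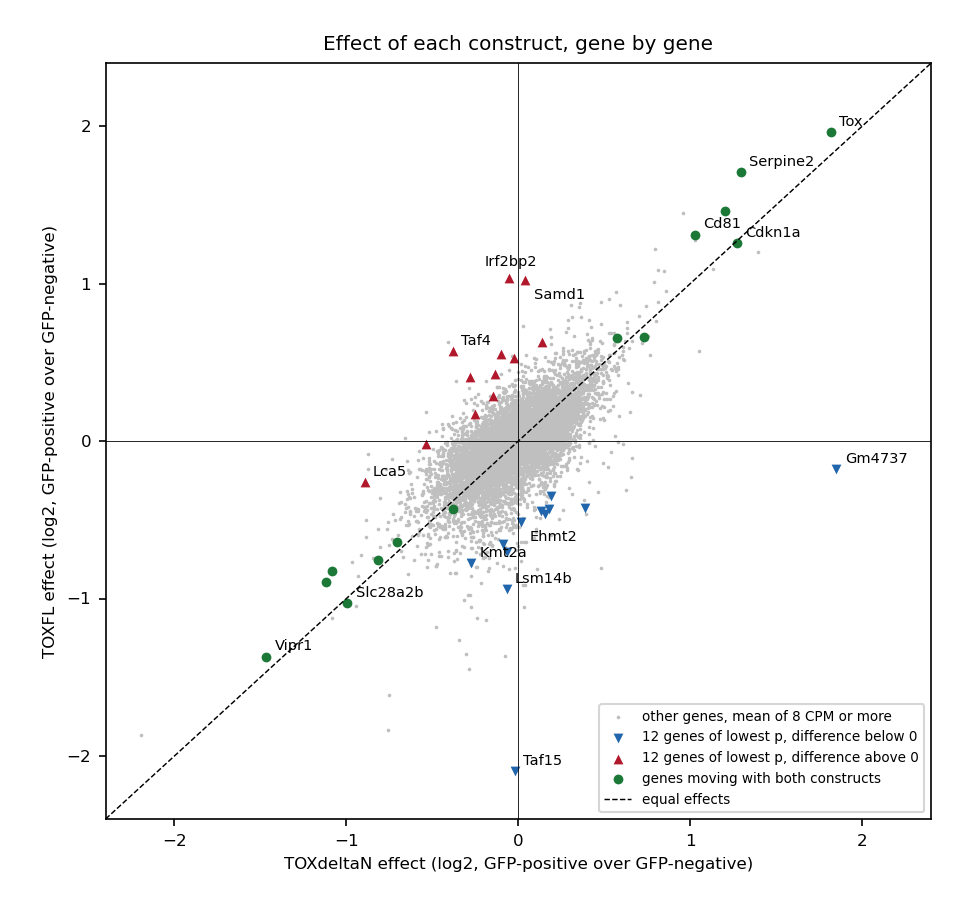
Effect of TOXFL (vertical axis, log2) against effect of TOXdeltaN (horizontal axis, log2) for genes with a mean of at least 8 CPM. Points near the dashed line have equal effects. Taf15 lies at −2.09 with TOXFL and −0.02 with TOXdeltaN, and Tox at 1.96 and 1.82.

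Genes called with TOXFL in the blocked fit moved the same way with TOXdeltaN in nearly all cases. That fit called 464 genes with TOXFL (3.48%) and 220 with TOXdeltaN (1.65%). Of 201 genes that rose with TOXFL (1.51% of those tested), 199 were above 0 with TOXdeltaN (99%), with a median effect of 0.52 against 0.41. Of 263 genes that fell (1.97%), 256 were below 0 with TOXdeltaN (97.3%), with a median of −0.58 against −0.35. Over all tested genes 50.7% were above 0 with TOXdeltaN and 49.3% below. The part of transcript length in these shares of like sign was not tested. A median taken over genes called with TOXFL favours TOXFL, since the calls were made on its values. Seen from the other side, 103 genes (0.773%) rose with TOXdeltaN with a median of 0.53 against 0.51 with TOXFL, and 117 (0.878%) fell with a median of −0.55 against −0.47. Leaving out 1 library moved the TOXFL counts between 12 and 804 higher and between 17 and 973 lower, the highest without the first or the second TOXdeltaN GFP-positive library, and the shares of like sign between 85.9% and 100%.

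The named genes called with both forms in the blocked fit were not called for the difference by edgeR or DESeq2 on all 8 libraries, and their differences lay between −0.07 and 1.16. Serpine2, which encodes a secreted inhibitor of serine proteases, stood at 31.8 and 67.2 CPM in TOXFL GFP-negative, 112 and 212 in TOXFL GFP-positive, 38.1 and 75.3 in TOXdeltaN GFP-negative and 106 and 172 in TOXdeltaN GFP-positive libraries. Replicate 2 was higher in every group, and both GFP-positive groups lay above both GFP-negative groups. Its difference was 0.42 (95% interval −0.956 to 1.79). In the blocked fit the difference of Serpine2 was 0.39 with an edgeR adjusted p of 0.989, and without the first TOXdeltaN GFP-positive library that fit called it at 0.55 (edgeR adjusted p = 0.0202). Cdkn1a, the cell cycle inhibitor that p53 induces, stood at 18.8 and 26.5 CPM and at 46.2 and 62.1 CPM in TOXFL GFP-negative and GFP-positive libraries. With TOXdeltaN it stood at 20.9 and 32.2 CPM and at 49.7 and 78.4 CPM. Its effects of 1.26 and 1.27 differed by −0.01 (95% interval −0.881 to 0.853).

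Slc28a2b, a nucleoside transporter gene, fell with both forms. It stood at 139 and 124 CPM in TOXFL GFP-negative and at 63.5 and 65.2 in TOXFL GFP-positive libraries, and at 109 and 105 in TOXdeltaN GFP-negative and 58.5 and 49.1 in TOXdeltaN GFP-positive libraries. The GFP-positive and GFP-negative libraries did not overlap, and the difference was −0.04 with a narrow interval (−0.382 to 0.312). Gbp10, an interferon-inducible GTPase gene, had effects of −0.75 and −0.82 and a difference of 0.06 (95% interval −0.238 to 0.359). Slc28a2b and Gbp10 have near-identical neighbours, and how reads were divided among the copies is uncertain.

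Other genes called with both forms had differences between −0.07 and 0.29, apart from Penk. The difference was −0.07 for Pdcd1, the gene of the inhibitory receptor PD-1 (95% interval −0.959 to 0.822), and 0.08 for the inhibitory receptor gene Cd160 (−0.334 to 0.495). For the tetraspanin gene Cd81 it was 0.29 (−0.144 to 0.716). It was 0.10 for the neuropeptide receptor gene Vipr1 (−0.543 to 0.737), 0.06 for the egress receptor gene S1pr1 (−0.629 to 0.757), −0.05 for its activator Klf2 (−0.527 to 0.425) and 0.26 for the interleukin-6 receptor gene Il6ra (−0.686 to 1.21). Asb2 is a ubiquitin ligase subunit gene, and the product of Igfbp4 binds insulin-like growth factors. In the fit without the block, the intervals of Asb2 (0.26, −0.891 to 1.41) and Igfbp4 (0.22, −1.21 to 1.65) allow differences of more than 1 log2 unit. In blocked fits with 1 library left out, the difference ran from −0.09 to 0.46 for Asb2 and from 0.10 to 0.29 for Igfbp4. All of these genes were called with both forms in the blocked fit, Serpine2, Cdkn1a, Cd160, Pdcd1, Cd81 and Asb2 higher and the others lower. Penk, which encodes the opioid precursor proenkephalin, had the widest interval, and its levels of 1.08 and 3.94 CPM rose to 4.84 and 19.1 CPM with TOXFL, and 2.02 and 7.89 CPM rose to 3.62 and 17.5 CPM with TOXdeltaN. Its difference of 1.16 (SE 1.29) had an edgeR adjusted p of 0.989 in the blocked fit.

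The genes of lowest p below 0 were mostly genes whose level was lowest in TOXFL GFP-positive cells. Taf15 (ENSMUSG00000020680.15, GRCm38 chromosome 11, 83473086 to 83506743), a FET-family RNA-binding protein that associates with the general transcription machinery, stood at 13.1 and 10.9 CPM in TOXFL GFP-negative and at 3.52 and 2.10 CPM in TOXFL GFP-positive libraries. With TOXdeltaN, the GFP-negative libraries had 10.5 and 8.60 CPM and the GFP-positive libraries 10.4 and 8.43 CPM. Both TOXFL GFP-positive libraries were below the other 6. The effect was −2.09 with TOXFL and −0.02 with TOXdeltaN, and the difference was −2.07 (SE 0.356, 95% interval −2.87 to −1.27). Its edgeR adjusted p was 1, and 0.0989 in the blocked fit, while DESeq2 gave 0.00185. The difference of Taf15 was below 0 under all 26 alternatives run, which refit the same libraries, and called in 6 of them. These were DESeq2 with and without the block, edgeR with no filter on low counts, and blocked fits with 1 library left in a group. Adjusted p ran from 5.38e-07, in the edgeR fit with no filter, to 1.

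Ehmt2 (ENSMUSG00000013787.15, chromosome 17, 34898469 to 34914052) and Kmt2a (ENSMUSG00000002028.13, chromosome 9, 44803355 to 44881296) are histone lysine methyltransferase genes, one known for repressive and the other for activating marks. Ehmt2 stood at 136 and 140 CPM in TOXFL GFP-negative, 92.5 and 100.2 in TOXFL GFP-positive, 132 and 129 in TOXdeltaN GFP-negative and 129 and 135 in TOXdeltaN GFP-positive libraries. Only the TOXFL GFP-positive libraries were low, and the difference was −0.53 (SE 0.125, 95% interval −0.812 to −0.253). Kmt2a stood at 176 and 157 CPM in TOXFL GFP-negative and 98.2 and 96.4 CPM in TOXFL GFP-positive libraries, and at 138 and 124 CPM in TOXdeltaN GFP-negative and 108 and 109 CPM in TOXdeltaN GFP-positive libraries. It was thus lower in GFP-positive cells of both kinds, with effects of −0.77 and −0.28, a GFP-negative gap of 0.34 between the cultures, and a difference of −0.50 (95% interval −0.807 to −0.191).

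A further 8 genes of lowest p below 0 were not called by edgeR or DESeq2 on all 8 libraries. Snrnp70, a core protein of a splicing particle, had a difference of −0.58, and Lsm14b, an mRNA-binding protein, one of −0.87. Eml2, a microtubule-associated protein, had −0.64, Ccdc88b, a coiled-coil protein of immune cells, −0.56, and Stx4a, a membrane fusion protein, −0.61. The values were −0.54 for the histone reader Phf20, −0.82 for the corepressor subunit Sap25 and −0.62 for the replication checkpoint mediator Clspn. In 9 of the 12, namely Taf15, Ehmt2, Kmt2a, Snrnp70, Lsm14b, Eml2, Ccdc88b, Stx4a and Clspn, both TOXFL GFP-positive libraries lay below all 6 other libraries. The genes were chosen for a low p of this contrast, so that is a description and not support.

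Gm4737, of which only a predicted coding gene is annotated (chromosome 16, 46152985 to 46155077), had the other large difference but a different pattern. It stood at 13.5 and 19.2 CPM in TOXFL GFP-negative and 14.3 and 14.7 CPM in TOXFL GFP-positive libraries, and at 4.86 and 7.42 CPM in TOXdeltaN GFP-negative and 26.3 and 17.99 CPM in TOXdeltaN GFP-positive libraries. The TOXdeltaN GFP-negative libraries were the lowest of the 8. The effects were −0.18 with TOXFL and 1.85 with TOXdeltaN, for a difference of −2.03 (95% interval −2.82 to −1.23, DESeq2 adjusted p = 0.000525, edgeR adjusted p = 1). DESeq2 also called Gm49342, Gm42417 and Gm49356, whose counts per library lay between 17 and 137, between 0 and 74, and between 0 and 31.

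**Figure D3:**
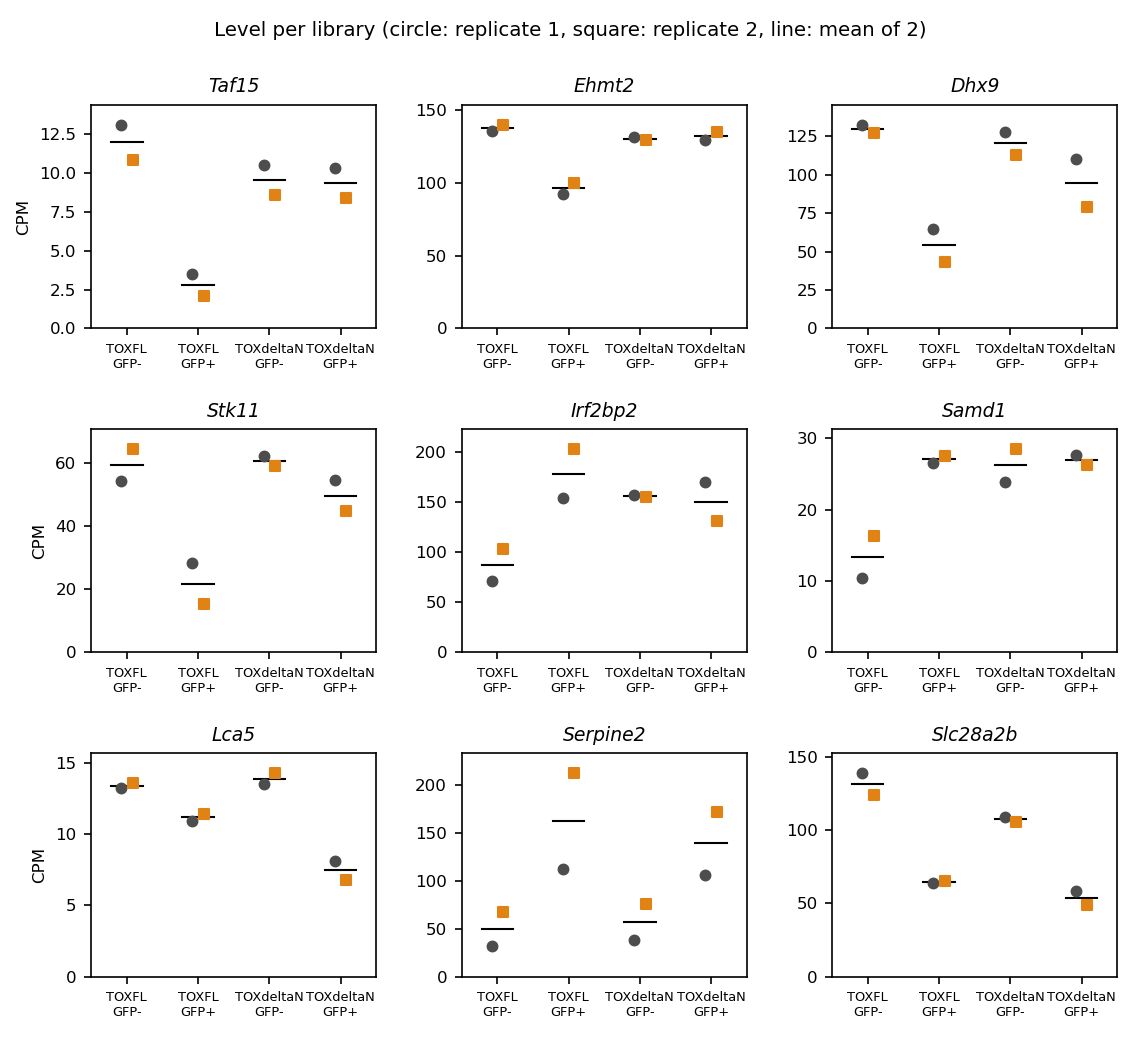
CPM per library (vertical axis) in the 4 groups (horizontal axis) for genes below 0 (Taf15, Ehmt2, Dhx9, Stk11), above 0 (Irf2bp2, Samd1, Lca5) and called with both forms (Serpine2, Slc28a2b), with replicate 1 as circles, replicate 2 as squares and the mean of 2 as a line. For Taf15 the TOXFL GFP-positive libraries lie at 3.52 and 2.10 CPM and all others at 8.43 CPM or more.

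The next genes were chosen because earlier results of these libraries had called them lower with TOXFL, so their low level in TOXFL GFP-positive cells was fixed by the choice and is a description. Dhx9, a nuclear helicase, stood at 132 and 127 CPM in TOXFL GFP-negative, 64.8 and 43.2 in TOXFL GFP-positive, 128 and 113 in TOXdeltaN GFP-negative and 110 and 79.1 in TOXdeltaN GFP-positive libraries. Stk11, which encodes the kinase LKB1 that activates AMPK, stood at 54.3 and 64.3, 28.2 and 15.3, 62.2 and 59.2, and 54.6 and 44.7 CPM in the same order. In both genes the TOXFL GFP-positive libraries were the lowest 2 of the 8. The difference was −0.92 for Dhx9 (SE 0.278, 95% interval −1.54 to −0.291) and −1.16 for Stk11 (SE 0.331, −1.90 to −0.418). DESeq2 with the block called Dhx9.

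Npm3, a nucleoplasmin-family histone chaperone, stood at 30.4 and 32.3, 17.7 and 6.69, 34.2 and 34.5, and 34.3 and 30.7 CPM in that order. Its TOXFL GFP-positive libraries differed from each other more than any other pair, and its difference of −1.29 (95% interval −2.31 to −0.265) was called by edgeR when the first of them was left out (adjusted p = 0.0305). Max, the DNA-binding partner of MYC, had −1.05 (95% interval −1.90 to −0.201), the helicase gene Ddx17 −0.88 (−1.57 to −0.198), Emd, which encodes emerin of the inner nuclear membrane, −0.95 (−1.68 to −0.219) and Tatdn2 −1.08 (−1.98 to −0.177). In Stk11, Npm3, Max, Ddx17, Emd, Tatdn2 and Dhx9 the second TOXFL GFP-positive library was below the first, and it is also the library with the low mitochondrial share. The 12 genes of lowest p below 0, Taf15 among them, had the same order of these 2 libraries, apart from Ehmt2, Sap25 and Gm4737. The part of that library's quality in these values was not tested. Intervals of Sun2, a nuclear envelope protein that links to the cytoskeleton (−0.86, −2.14 to 0.414), and of Nr4a3, a nuclear receptor induced by T cell receptor signals (−0.70, −1.60 to 0.197), included 0. In the blocked fit they did not, at −1.67 to −0.251 for Sun2 and −1.21 to −0.079 for Nr4a3, with an edgeR adjusted p of 0.989 for both.

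Above 0, the leading genes had their lowest levels in TOXFL GFP-negative cells. Irf2bp2 (ENSMUSG00000051495.7, chromosome 8, 126588296 to 126593986), a transcriptional corepressor, stood at 71.2 and 103 CPM in TOXFL GFP-negative and at 154 and 203 CPM in TOXFL GFP-positive libraries. The TOXdeltaN GFP-negative libraries had 158 and 155 CPM and the GFP-positive libraries 170 and 131 CPM. The TOXFL GFP-negative libraries were the lowest 2, 0.84 below the TOXdeltaN GFP-negative libraries on the log2 scale, a gap between GFP-negative cells. The difference of effects was 1.09 (SE 0.274, 95% interval 0.469 to 1.70). Samd1, which binds unmethylated CpG islands, stood at 10.4 and 16.3 CPM in the TOXFL GFP-negative libraries and at 23.9 to 28.4 CPM in the other 6, with a difference of 0.98 (95% interval 0.384 to 1.57).

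Taf4, a subunit of the general transcription factor TFIID (0.95), Nutf2, a nuclear import factor (0.68), and Ttll1, a tubulin-modifying enzyme (0.55), were likewise lowest in the 2 TOXFL GFP-negative libraries. The arrangement was different for Ppp2r5e, a regulatory subunit of protein phosphatase PP2A (0.65), the Polycomb gene Bmi1 (0.43), Hsd17b7, of cholesterol synthesis (0.56), and the thiamine transporter gene Slc19a2 (0.49), which were highest in the 2 TOXFL GFP-positive libraries. Slc19a2 stood at 33.7 and 39.0 CPM there and at 23.4 to 26.7 CPM elsewhere. Lca5, a ciliary protein gene (0.63), and Gm12185 (0.52) were lowest in TOXdeltaN GFP-positive cells, with Lca5 at 8.13 and 6.80 CPM against 10.9 to 14.3 CPM in the other 6 libraries. Fbh1, a DNA helicase gene (0.42), overlapped between groups. Of these 12 genes, Irf2bp2, Samd1, Ppp2r5e and Slc19a2 rose with TOXFL and Lca5 fell with TOXdeltaN in the blocked fit.

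**Figure D4:**
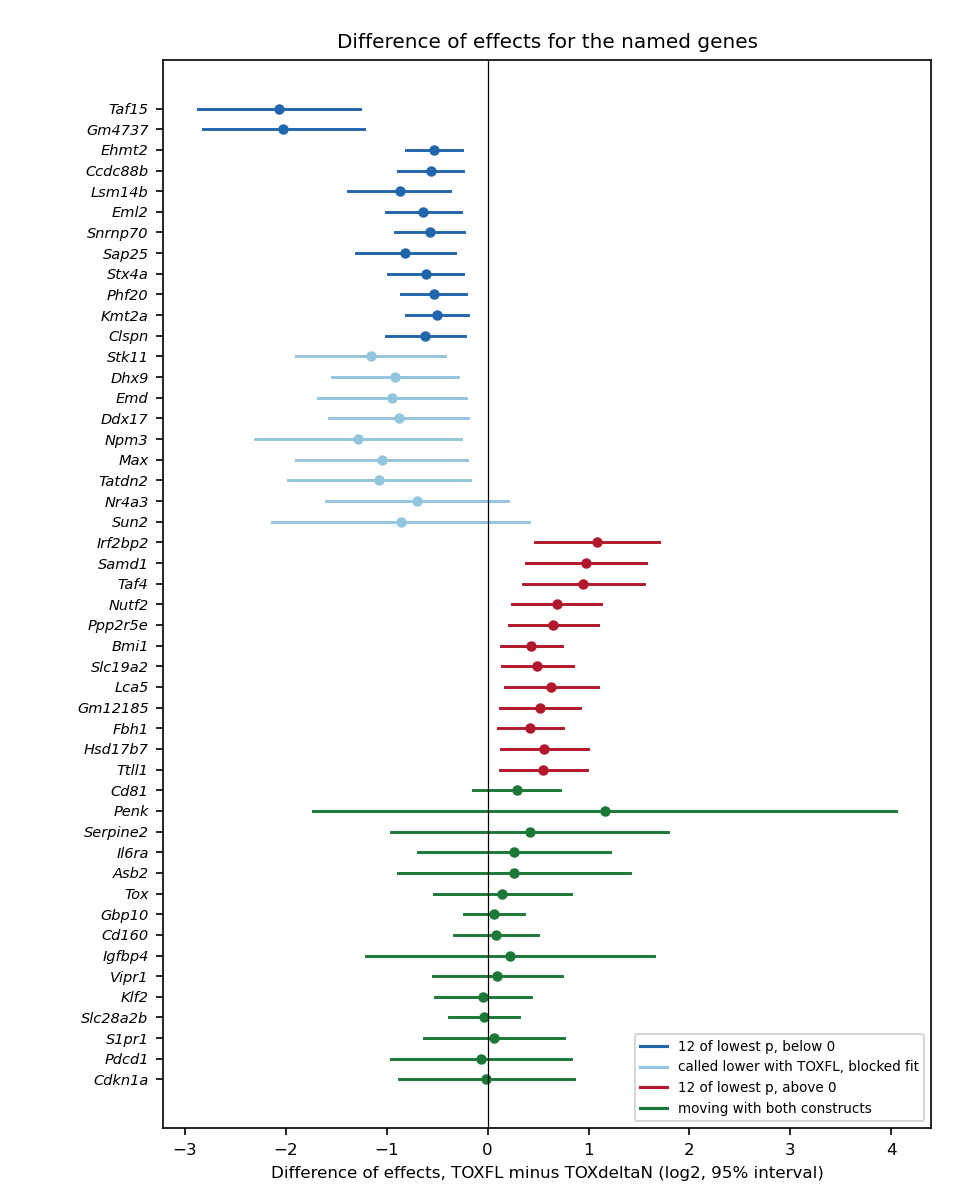
Difference of effects (horizontal axis, log2, TOXFL minus TOXdeltaN) with its 95% interval for the named genes, from the edgeR fit of all 8 libraries. Intervals of Taf15 (−2.87 to −1.27) and Gm4737 (−2.82 to −1.23) lie farthest from 0, and those of genes moving with both forms cross 0.

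Counted over all genes with a mean of at least 8 CPM, 103 had a difference below 0 with an unadjusted p under 0.05. In 74 of them (71.8%) the TOXFL effect was at least 2 times the TOXdeltaN effect in size, and in 14 (13.6%) the reverse held. Over all 9054 genes these shares were 22.6% and 26%. A low p of this contrast favours genes whose effects are far apart, so the shares are a description and nothing is read from their gap. Above 0 the 59 genes were more even, at 24 and 19. The 71.8% was 14.7% (71 of 483 genes) without the first TOXdeltaN GFP-positive library, where the second stands alone, and lay between 60.4% and 83.3% when any other library was left out.

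Gene groups were described by their median difference, against a median of 0.000497 over all tested genes, of which 49.9% lay below 0. edgeR called no gene in any list, while DESeq2 called Taf15, and DESeq2 with the block Taf15 and Dhx9. Over all tested genes 1.53% lay below 0 with an unadjusted p under 0.05, and 0.855% above 0. The lists were chosen with earlier results of these libraries known. Taf15, Dhx9, Ddx17 and Kmt2a had been called in those results, so counts that include them are a description and not support. FET proteins and RNA helicases had the lowest median among lists of nuclear factors, −0.117 over 15 genes, of which 10 lay below 0 and 4 had an unadjusted p under 0.05, all below 0: Taf15, Dhx9, Ddx17 and the helicase gene Ddx23 (−0.68). Without the second TOXFL GFP-positive library that median was −0.00319. Among 33 splicing factors and hnRNPs, 25 lay below 0 with a median of −0.0882, and the splicing factor genes Luc7l2 (−0.46), Tra2a (−0.45), Son (−0.37) and U2af1 (−0.32) had an unadjusted p under 0.05. Of 22 histone lysine methyltransferases, 12 lay below 0 and 3 had such a p, Ehmt2, Kmt2a and Setd1b (−0.95), with a median of −0.0574. The 10 tested genes of the HBO1 acetyltransferase complex, a histone acetylase linked to TOX, had a median of −0.0575 and a range of −0.135 to 0.265. That median was −0.108 in the replicate 1 and 0.126 in the replicate 2 libraries, and the methyltransferase median −0.0944 and 0.00471, so both changed sign.

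In 30 genes of mitosis the median was 0.104 and 23 lay above 0. The spindle checkpoint kinase gene Bub1, with 91.0 and 101 CPM in TOXFL GFP-negative and 140 and 143 CPM in TOXFL GFP-positive against 109 and 115 and 135 and 124 CPM with TOXdeltaN, had the lowest p (0.35, 95% interval 0.0464 to 0.649). Of these 30 genes, 20 rose with TOXFL and 8 with TOXdeltaN in the blocked fit, which called 1.51% and 0.773% of all genes higher. The 2 counts were not tested against each other, and TOXdeltaN had fewer calls in all. The median of the difference was −0.0388 without the first TOXFL GFP-negative library. Cytokine receptors lay above 0 in 21 of 23 genes with a median of 0.126 (0.0526 in replicate 1 and 0.227 in replicate 2). Among them Il6st, the shared signalling chain of the interleukin-6 family, stood at 128 and 129, 109 and 113, 118 and 127, and 96.6 and 72.2 CPM in the 4 groups, with a difference of 0.33 (95% interval −0.0874 to 0.738). Its lowest value came from the library that stood apart by length.

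Interferon-stimulated genes, naive and memory genes, inhibitory receptors and DNA replication genes had median differences between −0.00748 and 0.0177. For 35 interferon-stimulated genes the median effect was −0.43 with TOXFL and −0.43 with TOXdeltaN, and the median difference was −0.00748. The blocked fit called 11 of them lower with TOXFL and 12 with TOXdeltaN, against 1.97% and 0.878% of all genes. For 22 naive and memory genes, 9 and 8 fell and the median difference was 0.0137, and for 16 inhibitory receptors it was 0.0177. DNA replication genes had medians of 0.295 and 0.241 and a difference of −0.00292 over 26 genes. Targets of p53 had a median difference of 0.115 over 22 genes, with 16 above 0, and the blocked fit called 5 of them higher with TOXFL and 3 with TOXdeltaN, and 1 and 2 lower.

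The groups with the most uniform sign rested on the replicate 2 libraries. All 33 cytosolic ribosomal protein genes lay below 0, with a median of −0.249, but the median was 0.0483 in the replicate 1 libraries and −0.585 in the replicate 2 libraries. Rps4x stood at 418 and 437 CPM in TOXFL GFP-negative, 405 and 337 in TOXFL GFP-positive, 441 and 449 in TOXdeltaN GFP-negative and 424 and 574 in TOXdeltaN GFP-positive libraries. The lowest and the highest value thus came from the second library of the 2 GFP-positive groups. The 13 mitochondrially encoded genes also lay below 0, with a median of −0.367 that was 0.0516 in replicate 1 and −0.858 in replicate 2. For mt-Nd4, a subunit of respiratory complex I, the levels were 319 and 321, 254 and 155, 338 and 328, and 274 and 389 CPM. Without the second TOXFL GFP-positive library the mitochondrial median was −0.0166, and without the second TOXdeltaN GFP-positive library the ribosomal median was −0.0905. By transcript length, the median difference ran from −0.0622 in the shortest 20% of genes to 0.0324 in the longest 20%, and in the replicate 2 libraries from −0.174 to 0.14. The part of RNA quality or library preparation in these groups was not tested.

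**Figure D5:**
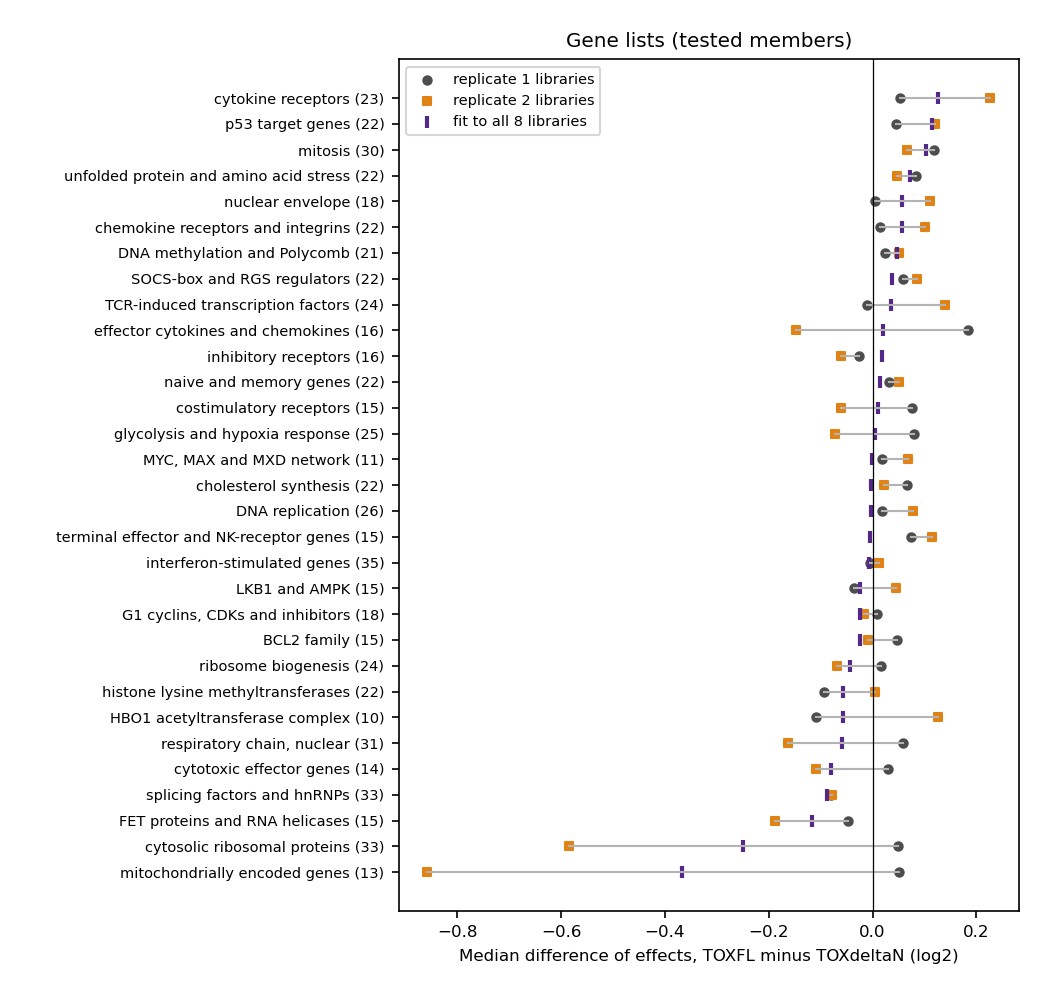
Median difference of effects (horizontal axis, log2) for gene lists with at least 10 tested members (number in brackets), from the replicate 1 libraries, the replicate 2 libraries and the fit to all 8. Mitochondrially encoded genes and ribosomal proteins lie at 0.0516 and 0.0483 in replicate 1 and at −0.858 and −0.585 in replicate 2.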

How the data were processed

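The authors' deposited file holds estimated counts per gene from RSEM, in whole numbers, for 8 libraries. Per the submitters' processing notes, RSEM 1.2.28 and STAR 2.6.1 with GRCm38 followed bcl2fastq 2.20 and cutadapt, and the annotation release and the rounding step are not stated. From these counts, genes were filtered with filterByExpr by group, scaled with TMM factors (0.9894 to 1.02) and fitted with edgeR 4.0.16 in R 4.3.3 (quasi-likelihood F-test, group means, Benjamini-Hochberg over 13329 genes, threshold 0.05). CPM values are computed from the TMM-scaled counts.

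Alternatives were the replicate block, DESeq2 1.42.0, limma-voom (limma 3.58.1), RLE factors, no count filter, corrections for transcript length or GC, and leaving out each library. The length correction without the block, the GC corrections, the block in DESeq2 and the counts of gene groups with a library left out were chosen after seeing the data. The biological coefficient of variation was 0.1321, and 0.0958 with the block. Replicates of a group differed by more than counting error (chi-square over degrees of freedom of 11.4 to 39.7). Every group has replicates 1 and 2, and the labels do not say that a number marks a shared mouse or day. Some markers followed the number in all 4 groups. Cd4 had 22, 21, 35 and 36 counts in the replicate 1 libraries and 1, 0, 0 and 0 in the replicate 2 libraries. Cd74 was higher in replicate 2 of every group. The cause was not tested. Printed SE and intervals are from the fit without the block unless stated, so they include any shift between replicate numbers. Across genes, libraries with the same number deviated together, with correlations of 0.168 to 0.241 over the 6 pairs of groups, and of 0.255 to 0.485 over the 9054 genes of at least 8 CPM. Each group has 2 libraries, so its 2 deviations mirror each other, and the pairing is inferred from the data.

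Symbols came from the deposited counts and coordinates from GENCODE M21, with 31748 identifiers matched without version and 31173 with it. The genes and lists were chosen with earlier results of these data known. Named genes were Tox and its relatives, the 12 genes of lowest p each way with a mean of at least 8 CPM, up to 4 members of each list, and genes called earlier with 1 form. The edgeR script was tested on simulated counts.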

Additional observations from a re-analysis of the deposited data

How the results depend on the processing

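The count of 0 called genes for the difference of effects remained 0 with the replicate block, with RLE factors, in limma-voom and with each length or GC correction. It became 45 with no filter on low counts (13 above 0 and 32 below), 5 in DESeq2 and 6 in DESeq2 with the replicate block. With 1 library left out it ranged from 0 to 449. Without the first TOXFL GFP-positive library it was 1, and 18 in the blocked fit, all below 0. The blocked fit gave 449 without the first and 4 without the second TOXdeltaN GFP-positive library, and 0 for each of the other 5 omissions. A group with 1 library left is assumed to vary like the other groups. The replicate block moved the unadjusted p under 0.05 from 318 to 494 genes. The cause of these changes was not tested.

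Over 26 alternatives, 44 of 59 named genes kept the sign of their difference. Many of the 44 were chosen for a low p of this contrast, and the alternatives refit the same libraries. A kept sign is therefore a description and not support. The 15 named genes that changed sign were genes that moved with both forms, and Tox4. Of these, Penk, Serpine2, Il6ra, Cd160, Igfbp4 and Klf2 kept their sign in every blocked fit with a library left out. The rest of the 15 changed sign in blocked fits as well. Fits without the block do not adjust for a shift between replicate numbers, and the ranges given next cover both kinds of fit. With 1 library left out, the difference ranged from −0.25 to 0.54 for Tox, −0.015 to 0.24 for Tox4, −0.36 to 0.35 for Cdkn1a, −0.40 to 0.32 for Pdcd1, −0.044 to 0.22 for Cd160, −0.16 to 1.06 for Serpine2, −0.34 to 0.69 for Asb2, and −0.14 to 2.70 for Penk. It ranged from −0.15 to 0.10 for Slc28a2b, −0.0031 to 0.13 for Gbp10, −0.23 to 0.41 for Vipr1, −0.22 to 0.11 for Klf2, −0.21 to 0.38 for S1pr1, −0.079 to 0.68 for Il6ra and −0.40 to 0.80 for Igfbp4. The near-0 TOXdeltaN effect of Taf15 ranged from −0.18 to 0.13, and the TOXFL effect of Gm4737 from −0.41 to 0.10. The difference of Klf2 was 0.0061 with the replicate block and length correction and 0.0081 with the length correction. For Cdkn1a it was 0.047 and 0.042 in those fits, 0.011 with the GC correction, 0.024 with the replicate block and GC correction, 0.0012 in limma-voom and 0.00073 in DESeq2 with the replicate block.

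With 2 libraries per group and a median SE of 0.171 for genes of at least 8 CPM, small differences were not detectable. The same precision cannot be claimed for genes of lower counts, whose SE was larger.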
